A study of Mus musculus with 4 samples.

Results

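The insulin-like growth factor (IGF) axis was examined through 10 genes: the ligands Igf1 and Igf2, the receptors Igf1r and Igf2r, and the binding proteins Igfbp1 to Igfbp6. They were found by symbol among the 21993 genes measured in 4 RNA-seq libraries, and each symbol had 1 row. The labels describe the cells as NK cells of the mouse uterus, taken at gd11.5 of pregnancies sired by B6 males and sorted by flow cytometry for NK1.1 and CD45 in the absence of CD3. There were 2 libraries of Ncr1Cre mice, which carry Cre recombinase under the control of Ncr1, the gene of the NK-cell receptor NKp46, and 2 control libraries without Cre. Ncr1 is also active in some other innate lymphoid cells, so Cre driven from it is not restricted to NK cells. Whether each library was made from its own mouse is not stated, so the p-values cover the spread of these 4 libraries, part of which may be technical. The unit is FPKM, the number of sequenced fragments of a gene divided by its length in kilobases and by the library's depth, and values are given for replicate 1 and then replicate 2 of a genotype.

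IGF1 and IGF2 are small secreted growth factors. Both signal through the tyrosine kinase receptor IGF1R, whereas IGF2R, the cation-independent mannose-6-phosphate receptor, carries IGF2 to lysosomes for degradation. The 6 binding proteins hold the ligands in extracellular fluid and matrix and release them when proteases cut them. In the pregnant uterus decidual stroma is a known source of binding proteins, and Igf2, an imprinted gene expressed from the paternal allele, is known to be abundant in trophoblast and fetal tissue.

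The marker genes of the labelled cells were low beside those of other uterine cells. Ncr1 was listed at 0 and 0.15 FPKM in Ncr1Cre and at 0.14 and 0.36 in control. Klrb1c, the gene of NK1.1, lay between 0.45 and 0.97 over the 4 libraries. Ptprc, the gene of CD45, stood at 4.39 and 5.16 FPKM in Ncr1Cre and at 2.89 and 2.57 in control. It was called higher (limma adjusted p = 0.0103). Cd3e, the gene of a CD3 chain, stood at 0.08 and 0.13 FPKM in Ncr1Cre and at 0 in both controls. The 12 NK-cell markers of the list used here summed to 37.9 and 38.0 FPKM in Ncr1Cre and to 25.7 and 25.8 in control. Of these, 5 reached a mean of 1 FPKM, and Gzmb, Prf1 and Il2rb were called higher in Ncr1Cre. By the test described below, 30.9% of all tested genes were called higher and 17.6% lower. In the same libraries 16 markers of decidual stroma and fibroblasts summed to between 15212 and 34329.7 FPKM, and 12 epithelial markers to between 10157 and 51726. A single gene, Prap1, gave most of the epithelial sum, at between 9530 and 49335 FPKM. At the depth implied by the low values, a single fragment on a transcript of 1 kb came to between 0.0259 and 0.0477 FPKM. Fragments behind the 9 members with a mean of at least 1 FPKM were estimated with the longest annotated transcript of each gene. These estimates ran from 140.2 (Igfbp2 in Ncr1Cre replicate 2) to 67701 (Igfbp6 in control replicate 1), and are too high where shorter transcripts were measured. In a bulk library, fewer cells of a type and less RNA per cell cannot be told apart.

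Of the 10 genes, 9 had a mean of at least 1 FPKM and were tested, and Igfbp1 did not. Between the genotypes 2 rose in Ncr1Cre (Igf2 and Igfbp3), 4 fell (Igf2r, Igfbp2, Igfbp5 and Igfbp6) and 3 did not pass the test (Igf1, Igf1r and Igfbp4). The test was limma on log2(FPKM + 1) with Benjamini-Hochberg adjustment over all genes, and a gene was called at an adjusted p under 0.05. By this rule 48.5% of all 11762 tested genes were called, 30.9% as higher and 17.6% as lower, so a call is common in these libraries. The median log2 fold change of the 9 genes was -0.47, and over all tested genes it was 0.11. Equalising the median level of the libraries moved every log2 fold change down by 0.16. It gave 1 call higher (Igf2) and 4 lower among the 9 genes, against 22.4% higher and 26.1% lower over all genes, and quantile normalization gave the same numbers of member calls, against 22.2% and 25.8%. The genotypes did not overlap in 7 of the 9 genes, 2 with Ncr1Cre higher and 5 with Ncr1Cre lower. Over all tested genes they did not overlap in 76.2%, with Ncr1Cre higher in 46.4% and lower in 29.9%.

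**Figure D1:**
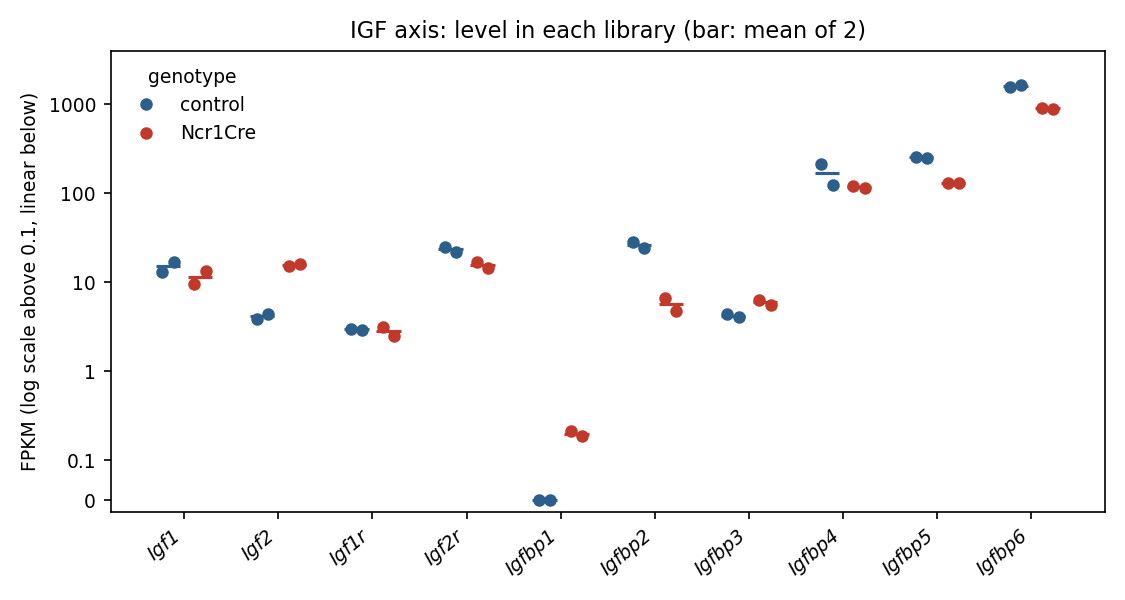
FPKM of each of the 10 genes (vertical axis, logarithmic above 0.1 and linear below) in the 2 control libraries (blue) and the 2 Ncr1Cre libraries (red), with bars at the mean of 2. Igfbp6 lies highest in both genotypes, at 1619 and 903 FPKM on average, and Igf2 changes place with Igfbp2 between them.

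The order of the levels, which FPKM allows within a library because it is scaled by transcript length, differed between the genotypes in its middle part. In the control libraries Igfbp6, Igfbp5 and Igfbp4 came first, followed by Igfbp2, Igf2r, Igf1, Igfbp3, Igf2, Igf1r and Igfbp1. There the ranges of Igfbp2 and Igf2r overlapped, as did those of Igfbp3 and Igf2, so the order within these pairs was not separated by the spread. In the Ncr1Cre libraries the same 3 binding proteins came first, followed by Igf2r, Igf2, Igf1, Igfbp3, Igfbp2, Igf1r and Igfbp1, with overlapping ranges for Igf2r and Igf2 and for Igfbp3 and Igfbp2. All other neighbours in both orders had ranges of 2 libraries that did not overlap.

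The sequences before the start sites are shown for 4 of the called members, in windows that meet no annotated exon, so that motifs they share can be seen: Igf2, the ligand that rose, Igf2r, the receptor that fell, Igfbp2, with the largest fall, and Igfbp6, the most abundant member. Each holds 250 bases upstream of a RefSeq start on GRCm38.p6, 5′ to 3′ on the strand of the gene, and the windows were chosen after the values were seen. Bases just after the start were found in a GENCODE M21 transcript of the gene for Igf2. They were not found for the printed starts of Igf2r, Igfbp2 and Igfbp6. Capitals mark matches, on either strand, to GGGCGG (the letters of a GC box), TATAAA (those of a TATA box), AGAACA (those of a steroid receptor half-site) or CACGTG (those of an E-box).
Igf2, the last of 4 starts, chr7:142657497-142657746, minus strand: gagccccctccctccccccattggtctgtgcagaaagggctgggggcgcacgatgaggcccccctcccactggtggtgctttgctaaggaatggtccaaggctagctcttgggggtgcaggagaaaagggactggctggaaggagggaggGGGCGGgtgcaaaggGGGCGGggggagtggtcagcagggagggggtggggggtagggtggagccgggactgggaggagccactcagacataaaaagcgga
Igf2r, chr17:12769707-12769956, minus strand: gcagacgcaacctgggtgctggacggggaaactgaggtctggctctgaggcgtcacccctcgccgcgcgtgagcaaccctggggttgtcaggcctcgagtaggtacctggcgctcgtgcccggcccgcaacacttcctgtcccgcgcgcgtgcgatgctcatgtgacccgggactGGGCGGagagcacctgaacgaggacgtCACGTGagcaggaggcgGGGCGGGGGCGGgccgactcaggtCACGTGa
Igfbp2, the first of 2 starts, chr1:72824230-72824479, plus strand: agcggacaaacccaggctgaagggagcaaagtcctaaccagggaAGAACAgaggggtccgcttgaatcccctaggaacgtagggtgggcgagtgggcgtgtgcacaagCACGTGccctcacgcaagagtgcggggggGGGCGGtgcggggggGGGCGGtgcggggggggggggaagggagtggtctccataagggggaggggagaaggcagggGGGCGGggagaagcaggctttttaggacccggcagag
Igfbp6, chr15:102143936-102144185, plus strand: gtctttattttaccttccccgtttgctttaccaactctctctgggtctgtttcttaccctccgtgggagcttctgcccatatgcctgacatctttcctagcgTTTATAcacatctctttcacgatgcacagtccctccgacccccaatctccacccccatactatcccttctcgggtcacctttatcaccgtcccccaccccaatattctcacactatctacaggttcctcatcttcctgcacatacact

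GC boxes were found 2 times in the Igf2 window, 3 times in that of Igf2r, 3 times in that of Igfbp2 and 0 times in that of Igfbp6. The first Igf2 start, whose window also meets no exon and is not printed, had 1 steroid receptor half-site and 0 GC boxes. The Igf2r window also held 2 E-boxes. The Igfbp2 window held 1 E-box and 1 steroid receptor half-site, and the Igfbp6 window held 1 TATA box match, far from the start. Of 32851 RefSeq starts, 32.7% held a GC box in the same length, 12.4% a TATA box, 16.1% the half-site and 6.02% the E-box, so a match in 1 window is not rare. The members that fell shared none of these motifs in all of their windows, and the files give 1 value per gene, which does not tell the starts of Igf2 or of Igfbp2 apart.

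Among the ligands Igf2 rose and Igf1 did not pass the test. Igf2 (ENSMUSG00000048583) stood at 15.1 and 16.2 FPKM in Ncr1Cre and at 3.86 and 4.46 in control. Both Ncr1Cre libraries thus lay above both control libraries, with means of 15.7 ± 0.723 (SD, n = 2) and 4.16 ± 0.422 (SD, n = 2). The mean was 3.76-fold higher (log2 fold change 1.69, SE 0.10, limma adjusted p = 0.000372). The log2 fold change was 1.53 after the median level was equalised, and the call held under each of the 11 alternatives run. Igf1 (ENSMUSG00000020053), the ligand made by many mesenchymal cells, stood at 9.54 and 13.5 FPKM in Ncr1Cre and at 13.2 and 17.1 in control. The genotypes overlapped, since the higher Ncr1Cre library lay above the lower control library, and the difference did not pass the test (log2 fold change -0.38, SE 0.20, limma adjusted p = 0.175). With the replicate number as a block it was called lower (limma adjusted p = 0.0205), and without Ncr1Cre replicate 2 too, at a log2 fold change of -0.60 (limma adjusted p = 0.0346). Igf2 made up 61.3% and 54.5% of the summed FPKM of both ligands in Ncr1Cre and 22.7% and 20.7% in control. The ratio of Igf2 to Igf1 was 1.59 and 1.20 against 0.29 and 0.26, so Igf2 exceeded Igf1 in both Ncr1Cre libraries and in neither control library.

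Most tested marker genes of trophoblast, of erythroid cells and of yolk sac endoderm and fetal liver were higher in the libraries in which Igf2 was higher. A rise was common in these libraries, with 30.9% of all tested genes called higher and 17.6% lower. Of 9 tested trophoblast markers 8 rose and 0 fell, and the 14 markers of the list summed to 1118 and 1302 FPKM in Ncr1Cre and to 432 and 471 in control. Among them Tpbpa, a spongiotrophoblast gene, stood at 452 and 517 against 143 and 167 FPKM. Of the listed genes of the syncytiotrophoblast, Gcm1 and Synb were at 0 in every library. Syna stood at 0.28 and 0.22 against 0.085 and 0.12 FPKM and was under the filter. Of 4 tested erythroid markers 4 rose, and the 6 with a row summed to 666 and 784 against 69.2 and 77.3 FPKM. Hba-a1 stood at 350 and 411 against 47.6 and 50.6 FPKM, and Hba-a2 at 302 and 358 against 20.8 and 25.6. These alpha-globin genes gave most of the sum, and whether their RNA came from fetal or maternal red cells was not tested. Of 5 tested markers of yolk sac endoderm and fetal liver 4 rose and 0 fell, with sums of 77.1 and 81.0 against 22.02 and 22.8 FPKM, no gene of the list at 0 in every library, and Afp, alpha-fetoprotein, at 17.9 and 19.5 against 1.503 and 1.35. The part of such cells in the level of Igf2 was not tested.

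Of the receptors Igf2r fell and Igf1r did not pass the test. Igf2r (ENSMUSG00000023830) stood at 16.95 and 14.7 FPKM in Ncr1Cre and at 25.03 and 21.9 in control. The genotypes did not overlap, with means of 15.8 ± 1.59 and 23.5 ± 2.23 (SD, n = 2), and the mean was 1.48-fold lower (log2 fold change -0.54, SE 0.11, limma adjusted p = 0.0137). Without control replicate 1 the log2 fold change was -0.45 and the call was lost (limma adjusted p = 0.0608), and it was also lost without the filter on low values (limma adjusted p = 0.0902). Igf1r (ENSMUSG00000005533) stood at 3.18 and 2.50 FPKM in Ncr1Cre and at 3.02 and 2.93 in control, and the control values lay between those of the Ncr1Cre libraries (log2 fold change -0.06, SE 0.13, limma adjusted p = 0.735). Igf2r exceeded Igf1r in each library, by 5.34- and 5.89-fold in Ncr1Cre and by 8.29- and 7.46-fold in control. Set against its ligand, Igf2r stood at 1.12 and 0.91 times the FPKM of Igf2 in Ncr1Cre and at 6.48 and 4.90 times in control. RefSeq places the noncoding RNA Airn over Igf2r and Igf2os and Mir483 over Igf2, Igf1os over Igf1, and Gm51488 and Gm51487 over Igf1r. Whether the libraries kept the strand is not given in the sources used here, so reads of these overlapping RNAs cannot be told from those of the members.

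**Figure D2:**
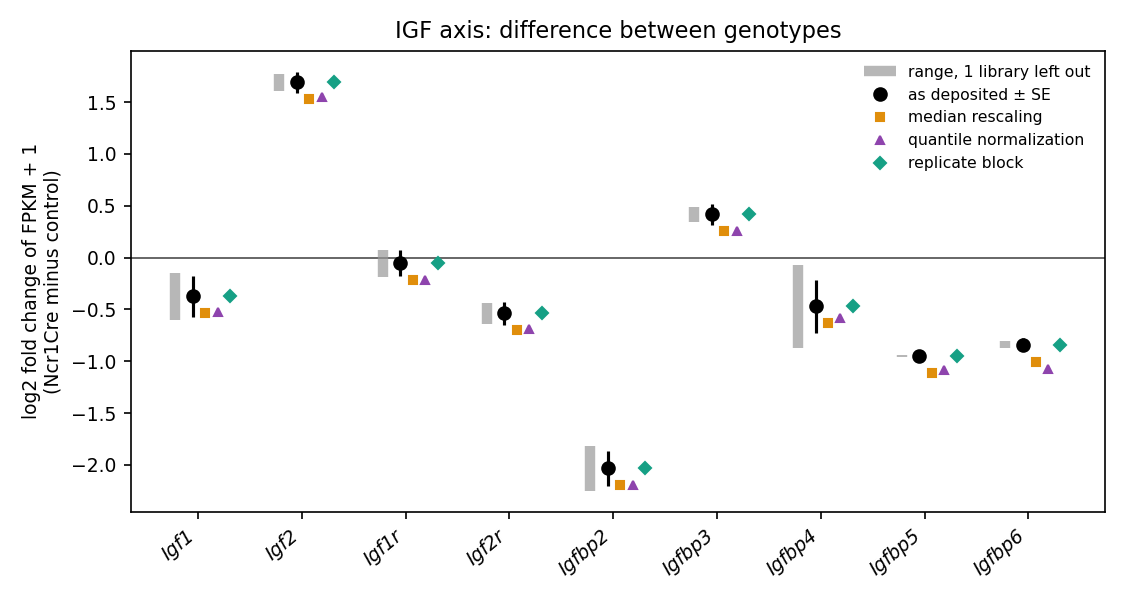
Log2 fold change of FPKM + 1 (vertical axis, Ncr1Cre minus control) of the 9 tested genes. Black points are the values on FPKM as deposited with their SE, coloured points those under 2 scalings and the replicate block, and grey bars the range when 1 library is left out. Igf2 stays above 1.5 and Igfbp2 below -1.8 throughout, and the bars of Igf1 and Igfbp4 are wide.

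Among the binding proteins the abundant Igfbp6 and Igfbp5 fell, and so did Igfbp2. Igfbp6 (ENSMUSG00000023046), which encodes a binding protein with a preference for IGF2, stood at 913 and 893 FPKM in Ncr1Cre and at 1579.7 and 1659 in control. Its rank among all genes was 51 and 55 in Ncr1Cre and 18 and 17 in control. Both Ncr1Cre libraries lay below both controls, with means of 903 ± 14.0 and 1619 ± 56.0 (SD, n = 2), which is 1.79-fold lower (log2 fold change -0.84, SE 0.06, limma adjusted p = 0.000606). Igfbp5 (ENSMUSG00000026185), which encodes a matrix-bound binding protein, stood at 131 and 130.4 FPKM against 255 and 252 in control. Replicates lay close together and the genotypes far apart, with means of 131 ± 0.596 and 253 ± 2.15 (SD, n = 2), and the mean was 1.94-fold lower (log2 fold change -0.95, SE 0.06, limma adjusted p = 0.000394). Igfbp2 (ENSMUSG00000039323) showed the largest fall of the 9 genes, with 6.75 and 4.73 FPKM against 28.3 and 24.4. The genotypes did not overlap, with means of 5.74 ± 1.43 and 26.4 ± 2.77 (SD, n = 2), which is 4.59-fold lower (log2 fold change -2.03, SE 0.17, limma adjusted p = 0.000856). Igfbp2 encodes a binding protein that is widely expressed in fetal tissue. The calls of Igfbp2, Igfbp5 and Igfbp6 held under each of the 11 alternatives run.

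The call of Igfbp3 held only in part, Igfbp4 did not pass the test and Igfbp1 was not tested. Igfbp3 (ENSMUSG00000020427), the main IGF carrier of blood, stood at 6.34 and 5.63 FPKM in Ncr1Cre and at 4.42 and 4.04 in control. It was the only binding protein called higher (log2 fold change 0.42, SE 0.11, limma adjusted p = 0.0263), and without overlap. That call was lost after the median level was equalised (log2 fold change 0.25, limma adjusted p = 0.0932), under quantile normalization (0.26, limma adjusted p = 0.0847), without the filter on low values (limma adjusted p = 0.0856), and when Ncr1Cre replicate 1 (0.34), control replicate 1 (0.47) or control replicate 2 (0.36) was left out. Igfbp4 (ENSMUSG00000017493), whose product is cut by the protease PAPP-A, stood at 120.2 and 114 FPKM in Ncr1Cre and at 215 and 123 in control. The genotypes did not overlap, but the control libraries lay far apart, and the difference did not pass the test (log2 fold change -0.47, SE 0.26, limma adjusted p = 0.192). It depended on which control library was kept, with -0.07 without control replicate 1 (limma adjusted p = 0.566) and -0.87 without control replicate 2 (limma adjusted p = 0.00504). Igfbp1 (ENSMUSG00000020429), known as a secreted product of decidualised human stroma, was listed at 0.21 and 0.19 FPKM in Ncr1Cre and at 0 in both controls. At the implied depth and a transcript of 1525 bases its values correspond to about 8.5 and 6.44 fragments, and it was under the filter and not tested. In the fit with no filter it was called higher. An exact 0 can be a failed estimate in such files, so no fold change is given.

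The 6 binding proteins together summed to 1178 and 1148 FPKM in Ncr1Cre and to 2082 and 2062 in control. Their composition was alike in its main part, as Igfbp6 made up 77.5% and 77.8% of the sum in Ncr1Cre and 75.9% and 80.4% in control, so the Ncr1Cre range lies within the control range. Igfbp5 made up 11.1% and 11.4% against 12.2% in both controls, and Igfbp4 10.2% and 9.97% against 10.3% and 5.98%. The share of Igfbp2 was 0.57% and 0.41% against 1.36% and 1.18%, and that of Igfbp3 0.54% and 0.49% against 0.21% and 0.20%. Both shares were separated between the genotypes, in opposite directions. The summed FPKM of the binding proteins was 47.7 and 38.7 times that of the 2 ligands in Ncr1Cre and 122 and 95.6 times in control. These are ratios of transcript levels, given as a description and not tested.

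**Figure D3:**
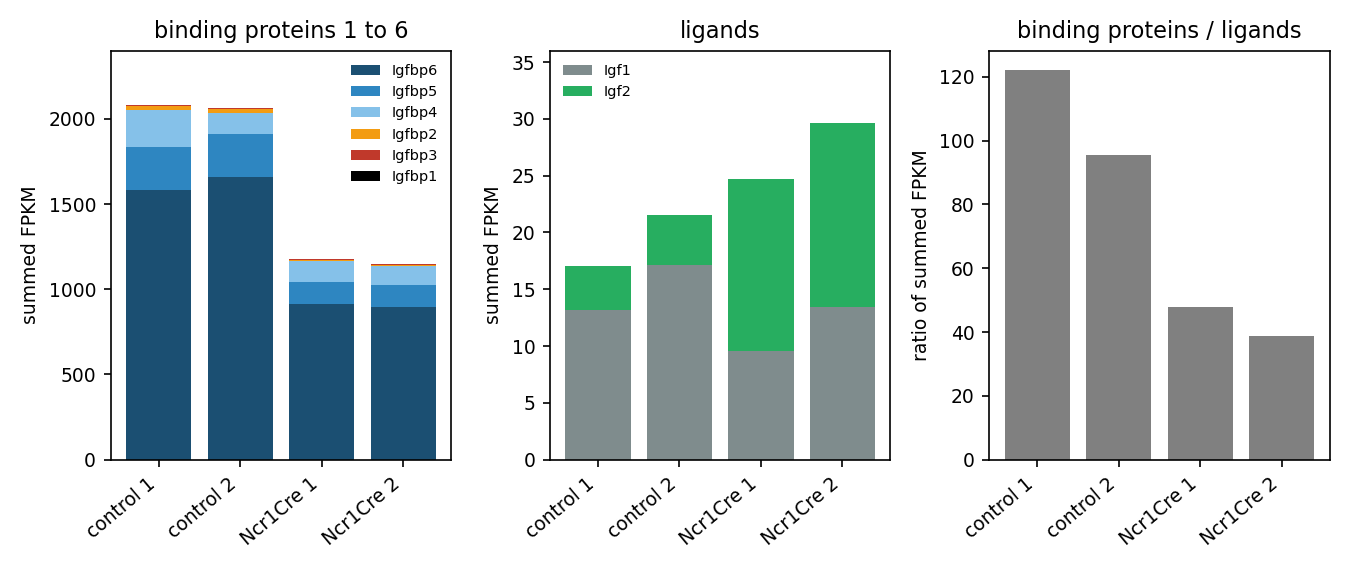
Summed FPKM of the 6 binding proteins (left) and of both ligands (middle), with 1 bar a library and 1 colour a gene, and the ratio of the 2 sums (right). Igfbp6 fills most of each bar on the left, Igf2 takes over 50% of the ligand bar only in Ncr1Cre, and the ratio is 38.7 to 47.7 in Ncr1Cre and 95.6 to 122 in control.

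Most stromal and all tested smooth-muscle markers were lower in the same libraries as Igfbp2, Igfbp5 and Igfbp6. For comparison, 17.6% of all tested genes were called lower and 30.9% higher. Of the 16 markers of decidual stroma and fibroblasts, all tested, 14 were called lower and 1 higher (Prl8a2, a decidual prolactin relative, at 21.9 and 24.7 against 3.35 and 4.12 FPKM), with a median log2 fold change of -0.83. Their summed FPKM was 15212 and 15214 in Ncr1Cre and 33795 and 34329.7 in control, and none was at 0 in every library. Col1a1, a fibrillar collagen chain, stood at 4515 and 4459 FPKM against 7923 and 8359, which is 1.81-fold lower. Col1a2 stood at 3313 and 3359 against 7487 and 7396, which is 2.23-fold lower. Of 8 tested smooth-muscle markers 8 fell, and the list of 10 summed to 86.0 and 82.5 FPKM against 399 and 398, with Acta2, smooth-muscle actin, at 8.27 and 9.47 against 75.6 and 76.7. Epithelial markers went the other way, with 12 of 12 higher and sums of 48751 and 51726 against 10157 and 10269.9 FPKM. Most of each sum was Prap1, at 46369 and 49335 against 9530 and 9667 FPKM. Epcam stood at 122 and 121 against 27.7 and 29.4. Macrophage and dendritic cell markers were higher in 7 of 9 and lower in 1, with sums of 108.3 and 108 against 49.9 and 54.5 FPKM. The part of these cell types in the levels of the binding proteins was not tested.

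**Figure D4:**
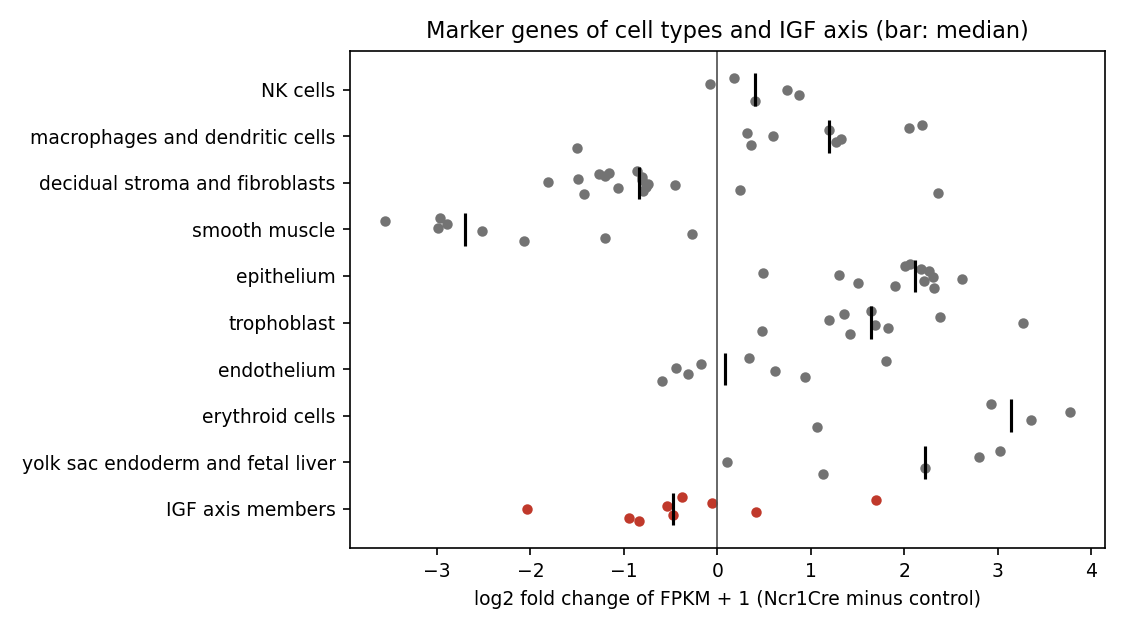
Log2 fold change of FPKM + 1 (horizontal axis, Ncr1Cre minus control) of each tested marker gene of 9 cell types (grey) and of the 9 tested IGF genes (red), with a bar at the median of each row. The median of the IGF genes, -0.47, lies between those of decidual stroma (-0.83) and endothelium (0.08), and single IGF genes reach both sides of 0.

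The genes whose levels over the 4 libraries were most like those of each member were found by the distance between centred log2(FPKM + 1) profiles, which with 2 genotypes of 2 libraries rests mainly on the fold change. For Igfbp6 the nearest were Bnip2, Col1a1 and Crb2, at distances of 0.015, 0.020 and 0.023. Among those of Igfbp5 were Gja1 and Glipr2 (0.026 and 0.031), of which Gja1 encodes the gap-junction protein connexin 43, known from decidual stroma. Those of Igfbp2 lay farther away, among them Upk3b (0.36), a gene known from mesothelium and urothelium, and Flrt2 (0.39). For Igf2 they were mt-Cytb, a mitochondrial gene, Slc18a1 and Cd24a (0.043, 0.056 and 0.083), where Cd24a encodes a surface protein of epithelia and of some immune cells. For Igf1 they were Ift81, Plagl1 and Zfp281 (0.071, 0.087 and 0.094), with Plagl1, an imprinted transcription factor gene, at 8.92 and 12.8 FPKM in Ncr1Cre and 11.9 and 15.0 in control. Those of Igf2r were Zhx3, Smco4 and Usp31, those of Igfbp3 Mipep, Zfp598 and Lrp10, those of Igfbp4 Auts2, Rbm7 and N6amt1, and those of Igf1r Tex9, Creld1 and Sh3glb1.

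Igfbp2 and Igfbp5 are neighbours on chromosome 1 and both fell, by different amounts, and Igfbp1 and Igfbp3 are neighbours on chromosome 11. Of the 16 other protein-coding genes that RefSeq places next to a member, 6 were tested, of which 0 were higher, 1 was lower and 5 did not pass the test (limma, adjusted over all genes). The 1 of 6 called lower is close to the 17.6% called lower over all tested genes, of which 30.9% were called higher. The gene that fell was Synm, next to Igf1r, an intermediate filament gene also among the smooth-muscle markers, at 0.96 and 0.76 FPKM against 3.37 and 3.17. Mrpl23, a mitochondrial ribosomal protein gene next to Igf2, stood at 31.7 and 39.7 FPKM against 29.1 and 30.1 and did not pass the test, and Ins2, on the other side of Igf2, was listed at 0 in every library. Rpl37a, next to Igfbp2, stood at 733 and 807 FPKM against 660.4 and 657 (limma adjusted p = 0.0521).

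Of 58 genes of the wider pathway 55 had a row and 44 were tested, of which 9 rose and 11 fell, or 20 in all (limma, adjusted over all genes). That is a slightly smaller share than the 48.5% called over all tested genes, of which 30.9% were higher and 17.6% lower. After the median level was equalised 5 rose and 16 fell, beside 22.4% and 26.1% of all genes, and under quantile normalization 3 rose and 14 fell, beside 22.2% and 25.8%. The median log2 fold change of the 44 was -0.09, beside 0.11 over all tested genes.

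Proteases that act on binding proteins, and their inhibitors, mostly fell, with 1 of 5 tested genes higher and 4 lower. Over all tested genes 30.9% were called higher and 17.6% lower. Htra1, a secreted serine protease that can cut binding proteins, stood at 87.1 and 89.4 FPKM in Ncr1Cre and at 213 and 211 in control (log2 fold change -1.26, SE 0.06, limma adjusted p = 0.000241). Adamts1, a metalloprotease of the ADAMTS family, stood at 118 and 107 against 249.9 and 221 (log2 fold change -1.06). The other two that fell were Htra3, a relative of Htra1, at 448 and 454 against 918 and 878 FPKM, and Stc2, which encodes an inhibitor of PAPP-A proteases, at 2.94 and 2.37 against 6.12 and 4.90. Pappa2, the gene of a protease that cuts IGFBP3 and IGFBP5, stood at 19.5 and 15.96 against 12.2 and 12.6 FPKM and was called higher (log2 fold change 0.47, limma adjusted p = 0.0228). That call was lost after the median level was equalised (limma adjusted p = 0.0639), under quantile normalization (0.0608), without the filter (0.116) and without Ncr1Cre replicate 1, control replicate 1 or control replicate 2 (limma adjusted p = 0.0664, 0.0873 and 0.0693). Pappa stood at 0.51 and 0.34 against 1.23 and 0.76 FPKM and Stc1 at 0.45 and 0.27 against 0.20 and 0.20, and both were under the filter.

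Igfbp7, a low-affinity relative of the binding proteins that is no member of the 6, stood at 687 and 489 FPKM in Ncr1Cre and at 1068 and 919.5 in control. It fell (log2 fold change -0.77, SE 0.18, limma adjusted p = 0.0197). The call was lost without control replicate 1, at a log2 fold change of -0.67 (limma adjusted p = 0.0811), and without the filter, at the same -0.77 (limma adjusted p = 0.156). The insulin receptor gene Insr stood at 4.14 and 3.90 against 4.90 and 4.97 FPKM and did not pass the test (log2 fold change -0.24, limma adjusted p = 0.0872), but was called lower after the median level was equalised (-0.40, limma adjusted p = 0.0186). Ins1, Ins2 and Igfbpl1 were listed at 0 in every library.

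Of 10 tested adaptors of the receptors 1 rose, 3 fell and 6 did not pass. Among all tested genes 48.5% were called, 30.9% as higher and 17.6% as lower. Grb10, an imprinted inhibitor of IGF1R and insulin receptor signalling, stood at 24.9 and 27.5 FPKM against 50.1 and 50.5 (log2 fold change -0.92, SE 0.08, limma adjusted p = 0.000938). Shc1, an adaptor to the RAS pathway, stood at 30.1 and 28.0 against 56.2 and 52.4 (log2 fold change -0.88), and Grb14, a relative of Grb10, at 1.49 and 1.51 against 0.69 and 0.72 (log2 fold change 0.55). Socs2, a feedback inhibitor of growth hormone signalling, was the other gene that fell, at 36.6 and 40.4 against 46.7 and 50.6 FPKM. The call of Grb14 was lost under quantile normalization and without control replicate 1. Irs1 and Irs2, the main docking proteins of the receptors, did not pass. Irs1 stood at 2.13 and 2.34 against 3.05 and 2.32 FPKM, and Irs2 at 13.7 and 10.5 against 19.9 and 14.3, with Irs2 called lower after the median level was equalised and with the replicate block (limma adjusted p = 0.0423 and 0.0114), and without Ncr1Cre replicate 1 or control replicate 2 (limma adjusted p = 0.0437 and 0.0497).

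Of 25 tested genes of PI3K, AKT, FOXO and mTOR signalling 6 rose, 3 fell and 16 did not pass. The share called was below the 48.5% of all tested genes, of which 30.9% were higher and 17.6% lower. The largest rises were those of Inpp5d, which encodes the phosphatase SHIP1 of blood cells, at 3.13 and 3.64 against 0.71 and 0.60 FPKM (log2 fold change 1.41, SE 0.12, limma adjusted p = 0.000885), and Pik3cb, a catalytic PI3K subunit, at 4.205 and 5.90 against 1.69 and 1.42 (1.23). The largest falls were those of Foxo1, a transcription factor held back by AKT and known from decidualisation, at 9.80 and 10.8 against 16.2 and 15.9 (-0.59), and Akt2, at 20.6 and 19.4 against 26.3 and 28.3 (-0.43). The call of Akt2 was lost without control replicate 2, at -0.38 (limma adjusted p = 0.0537), and that of Pik3cb without the filter, at the same 1.23 (limma adjusted p = 0.0563). Foxo3, a relative of Foxo1, also fell, at 13.96 and 12.97 against 17.3 and 18.6 FPKM. Foxo4, of the same list, went the other way and was called higher, at 23.2 and 21.3 against 18.1 and 16.9 FPKM. Of the genes that bind Igf2 mRNA, Igf2bp2 rose with Igf2, from 2.59 and 2.34 FPKM in control to 7.87 and 7.67 (log2 fold change 1.34, SE 0.10, limma adjusted p = 0.000579). Igf2bp3, known from trophoblast and fetal tissue, stood at 0.18 and 0.11 against 0.030 and 0.026 FPKM and was under the filter. H19, Airn and Igf2as were not analysed here.

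**Figure D5:**
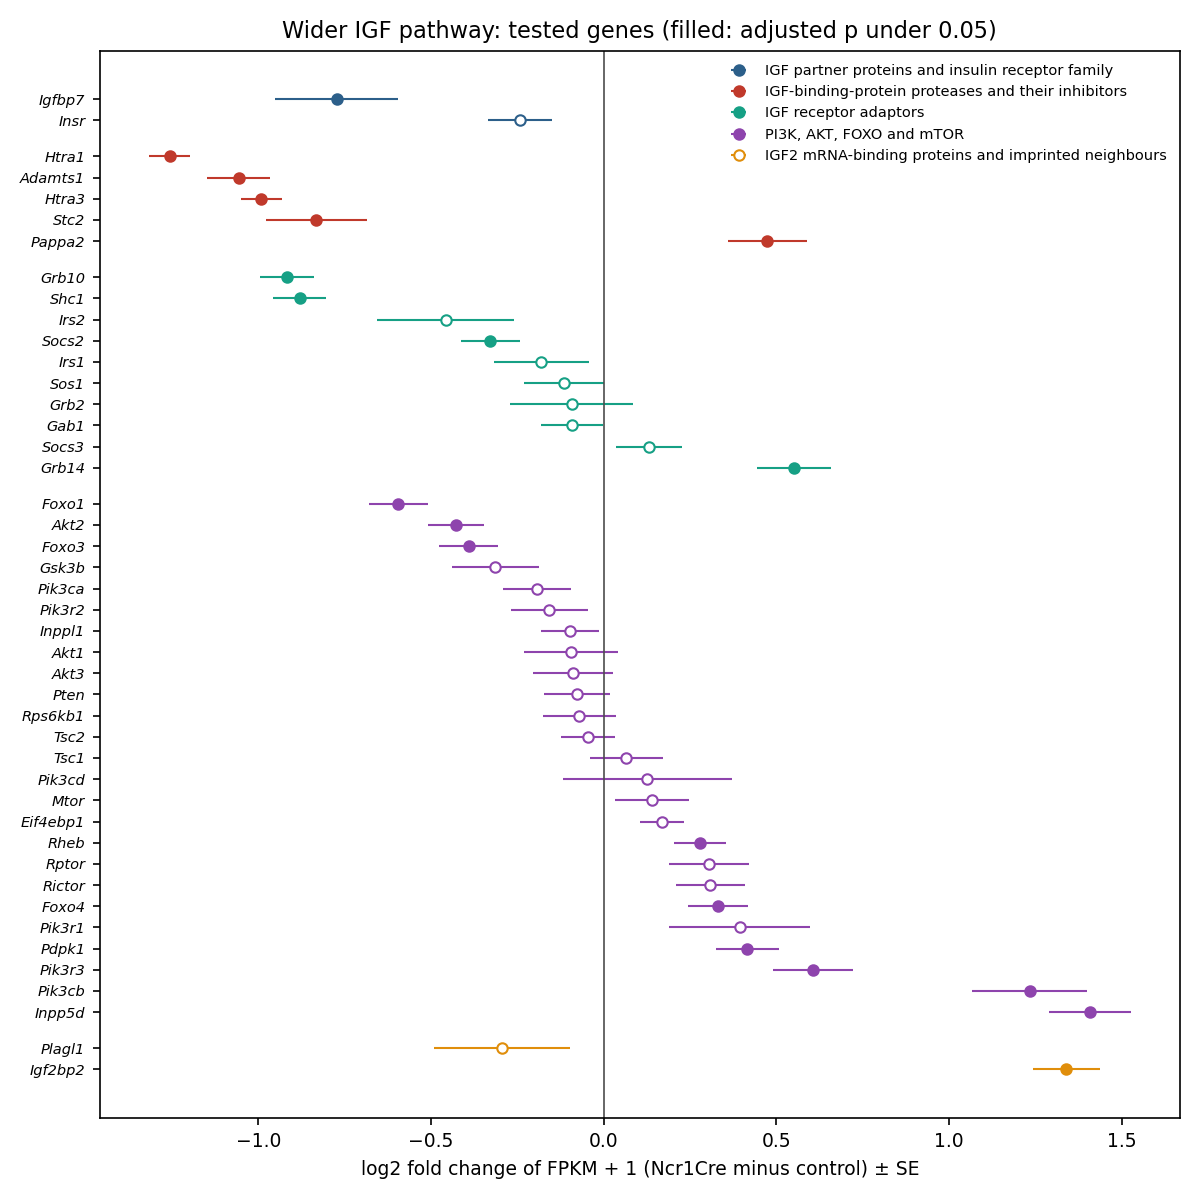
Log2 fold change of FPKM + 1 with its SE (horizontal axis, Ncr1Cre minus control) of the 44 tested genes of the wider pathway, coloured by list, with filled points where the adjusted p is under 0.05. The protease list lies left of 0 except Pappa2, and most of the PI3K, AKT, FOXO and mTOR genes lie close to 0 with open points.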

How the data were processed

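RNA-seq was done on 4 libraries, and each has 1 table of FPKM per gene. The authors made these FPKM values with Cufflinks on mm9, per the submitters' processing notes, which name no version. An aligner, an annotation and the handling of multi-mapped reads are not named in the sources used here. Groups and replicate numbers follow the labels, and other parts of the genotype, which all 4 libraries share, and some of the genes nearest in profile are not reported here. Spreadsheet dates in place of 27 symbols were replaced through the identifiers.

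Differences in log2(FPKM + 1) were tested with limma 3.58.1 (R 4.3.3, trend on) in the 11762 genes that averaged 1 FPKM or more. Tests are two-sided, and p-values are Benjamini-Hochberg adjusted over all tested genes. Fold changes on this scale understate those of low genes. The code was tested on simulated data. Members, gene lists and tests were chosen with earlier results of these data known. All 10 members are named. Of each wider pathway list, the 2 called genes with the largest rise and the 2 with the largest fall are named, and with them a set that includes Insr, Irs1, Irs2 and Igf2bp3. Htra3, Stc2, Socs2, Foxo3, Foxo4, Mrpl23 and Rpl37a, and single marker genes, were chosen after their values were seen.

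Depth was implied from whole-fragment steps in the low values of genes with 1 transcript in GENCODE M21, of which 36.4% to 39.7% came out whole within 0.02 fragments, and is an estimate. No test of counts was made. Promoter sequences are from RefSeq (GRCm38.p6), which held all 10 members. The replicate number was a block only as an alternative: deviations of equal-numbered replicates correlated at 0.16 over genes, and nothing else in the labels pairs them. Alternatives were other pseudocounts, filters, scalings, limma without trend, the block, and leaving out each library.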

Additional observations from a re-analysis of the deposited data

How the results depend on the processing

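The direction and call of Igf2, Igfbp2, Igfbp5 and Igfbp6 held under all 11 alternatives run, with log2 fold changes of 1.53 to 1.89, -2.25 to -1.82, -1.11 to -0.94 and -1.07 to -0.81. The calls of Igfbp3 and Igf2r did not, and the cause was not tested. Igfbp3 had 0.25 after median rescaling, 0.26 under quantile normalization, 0.42 with no filter (limma adjusted p = 0.0856) and 0.34 to 0.49 when 1 library was left out. Igf2r had -0.54 with no filter (limma adjusted p = 0.0902) and -0.64 to -0.44 when 1 library was left out. Leaving out 1 library gave -0.60 to -0.15 for Igf1, -0.87 to -0.0725 for Igfbp4 and -0.18 to 0.0714 for Igf1r, whose sign turned without Ncr1Cre replicate 2. The lone library of a genotype is then assumed to vary like the others. With the replicate block Igf1 was called lower at -0.38 (limma adjusted p = 0.0205), no other call of the 9 genes changed, and 6004 genes were called in all, against 5709.

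The members called higher numbered 1 after median rescaling and 1 under quantile normalization, and 1 to 2 when 1 library was left out. Over all genes 3638 were higher and 2071 lower, 2632 and 3069 after median rescaling and 2615 and 3032 under quantile normalization. With no filter 1340 were lower, and leaving out 1 library gave 1354 to 1883. In the wider pathway 5 genes were higher and 7 lower with no filter, 5 were higher at a mean of at least 5 FPKM and after median rescaling, 3 under quantile normalization, and 4 to 9 when 1 library was left out. With no filter the members called higher were Igf2 and Igfbp1, which was tested only there, and Igfbp3 was no longer among them. Values under 0.5 FPKM rest on few fragments at this depth.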
